A study of Mus musculus with 16 samples.

Results

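Fatty acid oxidation and ketogenesis genes were described here as a list of 38 genes, taken from both deposited count tables by exact gene name, of 24421 rows in each table. All 38 were found in both tables and all 38 passed the filter on low counts in every comparison. By the compartment of their products, 19 were mitochondrial, 11 peroxisomal, 3 shared between mitochondria and peroxisomes, and 5 in the cytosol or other membranes. Those 5 were Acsl1, Slc27a2, Acot1, Acot12 and Vnn1. Each gene was placed in a single group, and counts and medians by compartment depend on that placement. Whole mouse liver was sequenced as messenger RNA in 16 libraries, 4 in each of 4 groups. The DKO livers were ARID1A f/f; ARID1B f/f with Alb-Cre, and their controls had the same floxed alleles of both genes and no Cre. The BKO livers were ARID1B f/f with Alb-Cre, and their controls were floxed for Arid1b without Cre. Arid1a and Arid1b encode alternative subunits of the BAF chromatin remodelling complex, and Alb-Cre is driven from the albumin promoter, which is active in hepatocytes and in the embryonic progenitors that also give rise to bile duct cells. No group lost ARID1A alone. The Cre transgene was in the DKO and the BKO livers and in no control, and no group carried it without a floxed allele. Ages and sexes are not given in the labels.

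Fatty acids are burned in hepatocytes by beta-oxidation, a repeated cycle of dehydrogenation, hydration, dehydrogenation and thiolysis that shortens an acyl-CoA and yields acetyl-CoA. Mitochondria take long chains through the carnitine shuttle and pass the electrons to the respiratory chain, while peroxisomes shorten very long and branched chains and release hydrogen peroxide. In the fasted liver the acetyl-CoA feeds ketogenesis, and many genes of both pathways are targets of the nuclear receptor PPAR-alpha.

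The libraries held 8699417 to 11031443 counts each in the DKO experiment, and 21151726 to 40551934 each in the BKO experiment. Values are CPM, counts scaled to the size of the library and by edgeR's TMM factors, and an error after ± is an SD over n = 4 libraries. The 38 genes took 0.566% to 0.780% of all counts in DKO livers, against 0.685% to 1.15% in their controls. Gene-level counts cover exons outside the floxed part, so they check the labels only in part. Arid1b averaged 60.03 ± 13.7 CPM in DKO livers and 89.3 ± 9.17 CPM in their controls (n = 4 each; log2 fold change -0.57 with an SE of 0.16, adjusted p = 0.0167 by edgeR), and 44.3 ± 3.98 CPM in BKO livers and 84.8 ± 2.01 CPM in theirs (log2 fold change -0.94 with an SE of 0.09, adjusted p = 0.00154 by edgeR). Arid1a averaged 108 ± 6.08 CPM in DKO livers and 124 ± 10.2 CPM in their controls and was not called (log2 fold change -0.20 with an SE of 0.10, adjusted p = 0.149 by edgeR). The hepatocyte marker Alb took 3.76% to 6.38% of counts in DKO livers, against 8.62% to 9.94% in their controls. The controls spread widely in these genes. WT-7114 lay above its group's mean in 37 of the 38 genes, with a median log2 ratio of 0.33, while WT-7067 and WT-7139 lay below it in 34 and 32, with medians of -0.26 and -0.25. BKO control F5-2 lay above its group's mean in 37 of 38, with a median of 0.38, and F5 below it in 37, with a median of -0.28. Both carry F5 in their tags, and the labels do not say whether they come from the same animal. If they do, the BKO controls are fewer than 4 animals, and the BKO SDs and p-values count that animal more than once. Results that rest on such libraries are given with and without them. The p-values measure only the spread between these libraries, which may be technical.

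In DKO livers 22 of the 38 genes fell, 2 rose and 14 were not called, at an edgeR adjusted p under 0.05 over all 12848 genes tested. Over all genes 16.6% were called lower and 19.2% higher, and these shares apply to every count of genes called in DKO livers against their controls below. The median log2 fold change was -0.52 over the 38 genes and 0.02 over all genes. The fall reached every compartment, with 10 of 19 mitochondrial genes lower and 1 higher (median -0.41), 6 of 11 peroxisomal genes lower and 1 higher (median -0.57), 2 of 3 shared genes lower (median -0.61) and 4 of 5 genes of the cytosol or other membranes lower (median -1.05). In 20 of the 38 genes all 4 DKO livers lay below all 4 controls, and in 1 gene all lay above, where 16.9% and 18.5% of all genes did so. Each DKO library had 22 to 31 of the genes below the lowest control, most in DKO-7112. The share of all genes below the lowest control in single libraries was not counted, so these counts cannot be set against it. Without WT-7067 the counts were 22 lower and 2 higher, with a median of -0.58 over the 38 genes. Without WT-7139 they were 21 lower and 1 higher, with a median of -0.64. Without WT-7114 they were 16 lower and 3 higher, with a median of -0.41. By compartment, 8 mitochondrial, 4 peroxisomal, 2 shared and 2 other genes were then lower. The library tags fall in a 70 and a 71 series with 2 libraries of each group in either. All 22 lower and both higher genes had the same direction within both series. Their calls were made on these same libraries, so this agreement is no separate support for them. Of the 14 genes not called, 8 were lower in both series, 3 higher in both and 3 mixed. Scaled by total counts alone, 12 of the 38 genes were lower and 3 higher, and there the median of all genes was 0.20, and 72.0% of all calls were higher, against 53.6% with TMM scaling.

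**Figure D1:**
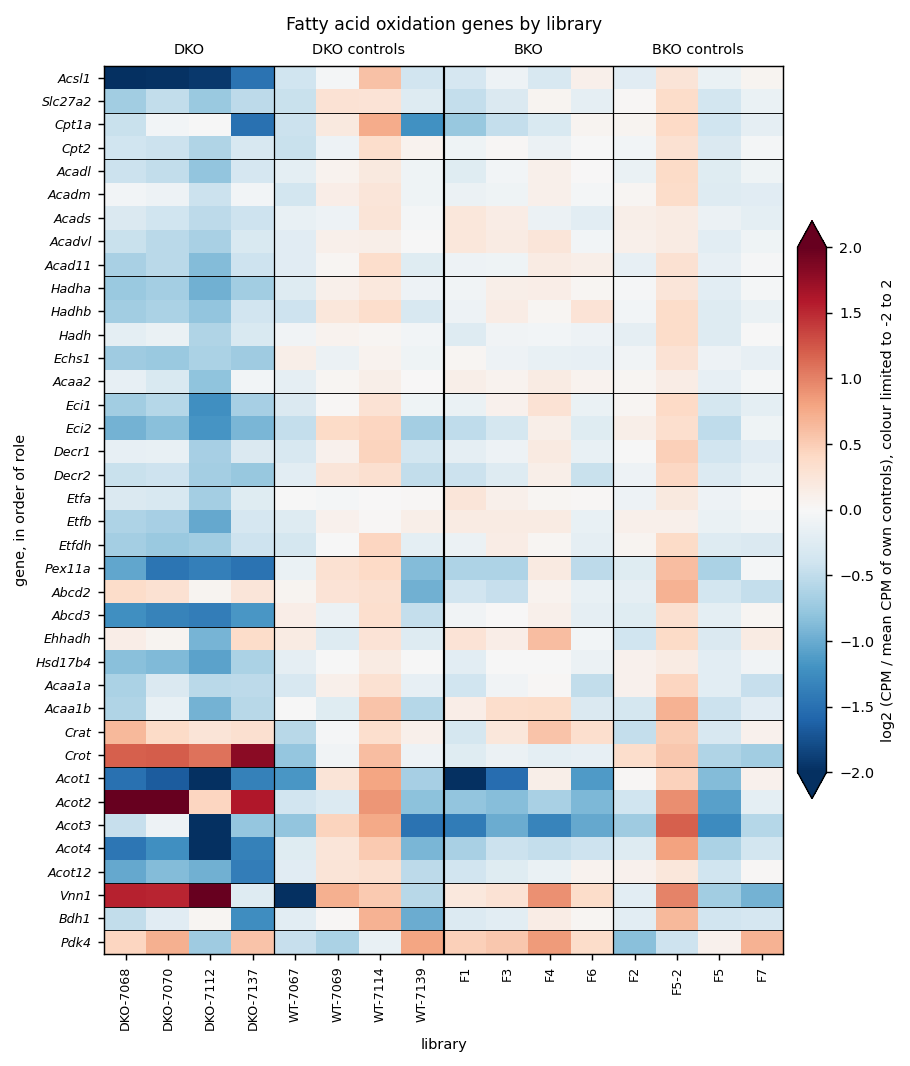
Log2 of each library's CPM over the mean CPM of its own controls, for the 38 genes (rows, ordered and divided by role) in 16 libraries (columns, by group); blue is below the control mean and red above it, and colours are limited to -2 to 2. Most rows are blue in all 4 DKO libraries, while Crot, Acot2 and, more faintly, Crat and Abcd2 lie above the control mean in all 4. WT-7067 and WT-7139 are mostly pale blue, and WT-7114 and F5-2 are the reddest control columns.

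Both genes that activate fatty acids fell. Values are given below for libraries DKO-7068, DKO-7070, DKO-7112 and DKO-7137 in that order, then WT-7067, WT-7069, WT-7114 and WT-7139. Acsl1 (chromosome 8, 46471037 to 46536051 on GRCm38), the main long-chain acyl-CoA synthetase of liver, stood at 248, 274, 281 and 388 CPM in DKO livers, against 818, 1045, 1605 and 827 CPM in their controls (log2 fold change -1.85 with an SE of 0.25, adjusted p = 0.00029 by edgeR). No DKO value came near a control value, and the highest DKO library was below the lowest control. Slc27a2, which activates very long chains and takes up fatty acids, stood at 698, 799, 676 and 784 CPM in DKO livers, against 827, 1374, 1363 and 940.0 CPM in their controls (log2 fold change -0.61 with an SE of 0.19, adjusted p = 0.0299 by edgeR). Its groups did not overlap, but WT-7067 was only just above the DKO range, and the call ended without WT-7114, WT-7069 or DKO-7068, with DKO-7068 and DKO-7070 summed, and under total counts.

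Neither gene of the carnitine step passed the edgeR test. Cpt1a, the outer-membrane carnitine palmitoyltransferase that controls entry of long chains, averaged 477 ± 184 CPM in DKO livers and 627 ± 337 CPM in their controls (log2 fold change -0.39 with an SE of 0.44, adjusted p = 0.533 by edgeR), and both groups were widely spread. Cpt2, which reforms the acyl-CoA inside the mitochondrion, averaged 99.9 ± 8.18 CPM in DKO livers and 135 ± 30.1 CPM in their controls (log2 fold change -0.43 with an SE of 0.16, adjusted p = 0.0533 by edgeR), and was called lower in 5 of 18 alternatives, with DESeq2's size factors, without a low-count filter, by the DESeq2 Wald test, without WT-7067 and in the fit of all 16 libraries. The groups of both genes overlapped. Of 14 other tested genes of the carnitine shuttle and acyl-CoA activation, 8 fell and 1 rose, with a median of -0.54. Acsm5 and Acsm1, medium-chain acyl-CoA synthetases, fell (-1.53, adjusted p = 1.92e-05, and -1.07, adjusted p = 0.000113, edgeR), as did the peroxisomal acyl-CoA binding protein gene Acbd5 (-1.08, adjusted p = 0.00308, edgeR) and Fabp1, which encodes the fatty acid binding protein of liver (-0.98, adjusted p = 0.00399, edgeR).

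Among the 5 acyl-CoA dehydrogenases, which open each cycle and differ by chain length, 4 fell and 1 was not called. Acadvl, for very long chains, stood at 216, 203, 188 and 238 CPM in DKO livers, against 252, 315, 319 and 293 CPM in their controls (log2 fold change -0.48 with an SE of 0.13, adjusted p = 0.0145 by edgeR). Acadl, for long chains, stood at 106, 101.1, 82.1 and 113 CPM in DKO livers, against 124, 149, 163 and 135 CPM in their controls (log2 fold change -0.50 with an SE of 0.13, adjusted p = 0.0123 by edgeR). The groups of both genes were separate, with the WT-7067 control closest to the DKO livers. Acads, for short chains, stood at 75.6, 69.99, 63.8 and 68.7 CPM in DKO livers, against 82.6, 85.4, 110.3 and 89.1 CPM in their controls (log2 fold change -0.40 with an SE of 0.12, adjusted p = 0.0201 by edgeR), and again all 4 DKO values were the lower ones. Acad11, which handles longer chains and hydroxylated acids, stood at 253, 271, 217 and 298 CPM in DKO livers, against 339, 407, 505 and 335 CPM in their controls (log2 fold change -0.61 with an SE of 0.17, adjusted p = 0.0161 by edgeR). It was separate too, with DKO-7112 lowest. Acadm, for medium chains, was the exception, at 171 ± 20.5 CPM in DKO livers and 189 ± 33.5 CPM in their controls (log2 fold change -0.15 with an SE of 0.15, adjusted p = 0.491 by edgeR), and its groups overlapped. Under total counts alone the calls of all 4 ended, with log2 fold changes that stayed negative.

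Of the 5 genes of the middle and closing steps of the mitochondrial cycle, 3 fell. Echs1 (chromosome 7, 140105710 to 140116476), the short-chain enoyl-CoA hydratase, stood at 92.9, 91.5, 97.8 and 93.4 CPM in DKO livers, against 166, 140.3, 160.3 and 143 CPM in their controls (log2 fold change -0.70 with an SE of 0.10, adjusted p = 0.000425 by edgeR). The DKO livers were nearly alike and well below every control. Hadha (chromosome 5, 30118304 to 30155162), the alpha subunit of the trifunctional protein that carries long chains through the later steps, stood at 199.6, 208, 172 and 207 CPM in DKO livers, against 280.2, 361, 388 and 311 CPM in their controls (log2 fold change -0.77 with an SE of 0.14, adjusted p = 0.00173 by edgeR). Hadhb, its beta subunit with the thiolase, lies next to Hadha on the opposite strand and stood at 45.7, 47.5, 42.8 and 56.5 CPM in DKO livers, against 55.5, 86.6, 94.2 and 59.4 CPM in their controls (log2 fold change -0.62 with an SE of 0.18, adjusted p = 0.0203 by edgeR). Hadha was separate between groups, whereas DKO-7137 overlapped the lowest Hadhb control, and the Hadhb call ended without WT-7069, without WT-7114 and under total counts. Hadh, the short-chain hydroxyacyl-CoA dehydrogenase, stood at 329, 342, 247 and 303 CPM in DKO livers, against 359, 395, 384 and 363 CPM in their controls. All 4 Hadh values were below all 4 controls, yet the gene was not called (log2 fold change -0.30 with an SE of 0.13, adjusted p = 0.108 by edgeR), except by DESeq2, which called it lower. Acaa2, the mitochondrial thiolase, averaged 392 ± 81.7 CPM in DKO livers and 486 ± 41.9 CPM in their controls and was not called (log2 fold change -0.31 with an SE of 0.17, adjusted p = 0.186 by edgeR).

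The auxiliary enzymes that let unsaturated chains enter the cycle fell in 3 of 4 cases. Eci1, the mitochondrial enoyl-CoA isomerase, stood at 45.9, 49.9, 31.8 and 46.7 CPM in DKO livers, against 60.8, 75.2, 91.2 and 70.4 CPM in their controls (log2 fold change -0.77 with an SE of 0.16, adjusted p = 0.00436 by edgeR). Eci2, its peroxisomal and mitochondrial counterpart, stood at 73.1, 78.5, 62.0 and 74.6 CPM in DKO livers, against 101.4, 184, 189 and 87.9 CPM in their controls (log2 fold change -0.97 with an SE of 0.25, adjusted p = 0.0136 by edgeR). Both were separate between groups, and the Eci2 controls split into a low pair, WT-7067 and WT-7139, and a high pair. Decr2, the peroxisomal dienoyl-CoA reductase, stood at 157, 161, 133 and 126 CPM in DKO livers, against 184, 252, 266 and 153 CPM in their controls (log2 fold change -0.57 with an SE of 0.18, adjusted p = 0.0328 by edgeR). WT-7139 lay within the DKO range, and the Decr2 call ended under total counts and without DKO-7068, DKO-7112, DKO-7137, WT-7069 or WT-7114, each in turn. Decr1, the mitochondrial reductase, averaged 71.6 ± 11.3 CPM in DKO livers and 88.4 ± 24.0 CPM in their controls and was not called (log2 fold change -0.30 with an SE of 0.19, adjusted p = 0.246 by edgeR).

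All 3 genes that pass electrons from the dehydrogenases to ubiquinone fell. Etfa and Etfb encode the subunits of electron transfer flavoprotein and Etfdh its membrane dehydrogenase. Etfa stood at 119, 117, 91.6 and 124 CPM in DKO livers, against 146, 143, 148 and 149 CPM in their controls (log2 fold change -0.37 with an SE of 0.11, adjusted p = 0.0272 by edgeR). Etfb stood at 96.2, 92.7, 72.6 and 116 CPM in DKO livers, against 123, 156, 149.6 and 159 CPM in their controls (log2 fold change -0.64 with an SE of 0.15, adjusted p = 0.00744 by edgeR). Etfdh stood at 99.5, 94.5, 97.6 and 119 CPM in DKO livers, against 124, 158, 212 and 139 CPM in their controls (log2 fold change -0.63 with an SE of 0.17, adjusted p = 0.0134 by edgeR). The groups were separate for all 3, and DKO-7112 was lowest in Etfa and Etfb. The Etfa call ended under total counts and without WT-7067, WT-7114 or WT-7139, each in turn.

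Of 14 other tested genes of mitochondrial acyl-CoA oxidation, 9 fell and 1 rose (median -0.60). They included Pccb and Pcca, the subunits of propionyl-CoA carboxylase (-0.99, adjusted p = 8.79e-05, and -1.04, adjusted p = 0.000855, edgeR), Mut, methylmalonyl-CoA mutase (-0.79, adjusted p = 0.000604, edgeR), and Acad8, a branched-chain acyl-CoA dehydrogenase (-0.82, adjusted p = 0.000283, edgeR).

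**Figure D2:**
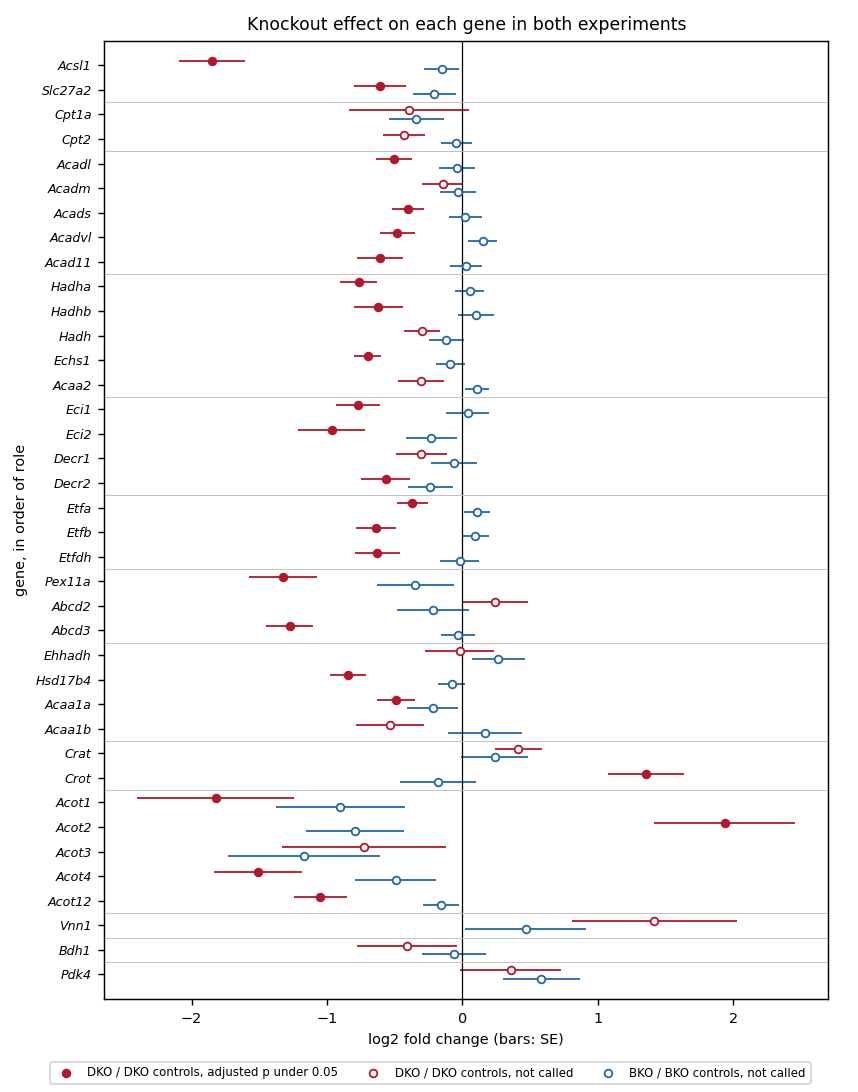
Log2 fold change of each of the 38 genes (rows, by role) in DKO over DKO controls (red) and BKO over BKO controls (blue), with bars for the SE; filled points passed an edgeR adjusted p of 0.05. Filled points lie left of 0 for 22 genes and right of it for Crot and Acot2, and every BKO point is open.

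Of 3 genes of the peroxisomal membrane, 2 fell. Abcd3 (chromosome 3, 121758774 to 121815302), an abundant acyl-CoA importer of the peroxisomal membrane, stood at 250.1, 232, 224 and 261 CPM in DKO livers, against 641, 540.3, 737 and 422 CPM in their controls (log2 fold change -1.28 with an SE of 0.18, adjusted p = 0.000358 by edgeR). Pex11a, a membrane protein of peroxisome division, stood at 15.7, 11.8, 12.5 and 11.6 CPM in DKO livers, against 29.4, 39.7, 42.4 and 17.7 CPM in their controls (log2 fold change -1.33 with an SE of 0.25, adjusted p = 0.0027 by edgeR). Every DKO value of both genes was below every control, although the Pex11a control WT-7139 was close. Abcd2, a related importer, averaged 72.8 ± 6.53 CPM in DKO livers and 61.4 ± 20.8 CPM in their controls and was not called (log2 fold change 0.24 with an SE of 0.24, adjusted p = 0.469 by edgeR).

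The peroxisomal cycle itself was uneven. Hsd17b4, the D-bifunctional hydratase and dehydrogenase, stood at 205, 199, 175 and 235 CPM in DKO livers, against 323, 364, 410.5 and 365 CPM in their controls (log2 fold change -0.85 with an SE of 0.13, adjusted p = 0.000855 by edgeR), with no overlap. Ehhadh, the L-bifunctional enzyme for the same steps and a classical PPAR-alpha target, averaged 318 ± 104 CPM in DKO livers and 322 ± 61.7 CPM in their controls and was not called (log2 fold change -0.02 with an SE of 0.25, adjusted p = 0.957 by edgeR). DKO-7112 held the lowest Ehhadh value and DKO-7137 the highest of the 8. The thiolase gene Acaa1a stood at 44.5, 56.7, 47.5 and 48.3 CPM in DKO livers, against 55.6, 73.9, 85.6 and 61.7 CPM in their controls (log2 fold change -0.49 with an SE of 0.14, adjusted p = 0.0221 by edgeR), where DKO-7070 overlapped WT-7067, and the call ended without WT-7114, without DKO-7068 and under total counts. Its near copy Acaa1b averaged 358 ± 81.6 CPM in DKO livers and 519 ± 181 CPM in their controls and was not called (log2 fold change -0.53 with an SE of 0.25, adjusted p = 0.12 by edgeR).

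Of 19 other tested peroxisomal oxidation genes, 10 fell and 9 were not called (median -0.54). Cat, which removes the hydrogen peroxide, fell to 664 CPM in DKO livers, against 2563 CPM in their controls (-1.95, adjusted p = 2.14e-05, edgeR). Baat, which conjugates bile acids, and Tysnd1, a peroxisomal protease, fell as well (-1.04, adjusted p = 0.00025, and -0.86, adjusted p = 0.000465, edgeR). Of 15 peroxisome assembly genes 4 fell, among them Pex6, Pex5 and Pex3 (log2 fold changes -0.66, -0.74 and -0.44), with a median of -0.41 over the list.

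Crot (chromosome 5, 8966033 to 8997324), peroxisomal carnitine octanoyltransferase, which makes medium-chain acylcarnitines for export to mitochondria, rose. It stood at 525, 530.4, 487 and 799.7 CPM in DKO livers, against 133, 217, 352 and 212 CPM in their controls (log2 fold change 1.36 with an SE of 0.28, adjusted p = 0.00422 by edgeR). Every DKO liver was above every control, with DKO-7137 highest, and the log2 fold change stayed between 1.16 and 1.63 over 18 alternatives. Crat, carnitine acetyltransferase for the shortest chains, averaged 59.8 ± 7.47 CPM in DKO livers and 44.9 ± 11.0 CPM in their controls and was not called (log2 fold change 0.41 with an SE of 0.17, adjusted p = 0.0897 by edgeR), though it was called higher without WT-7114 and under total counts.

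**Figure D3:**
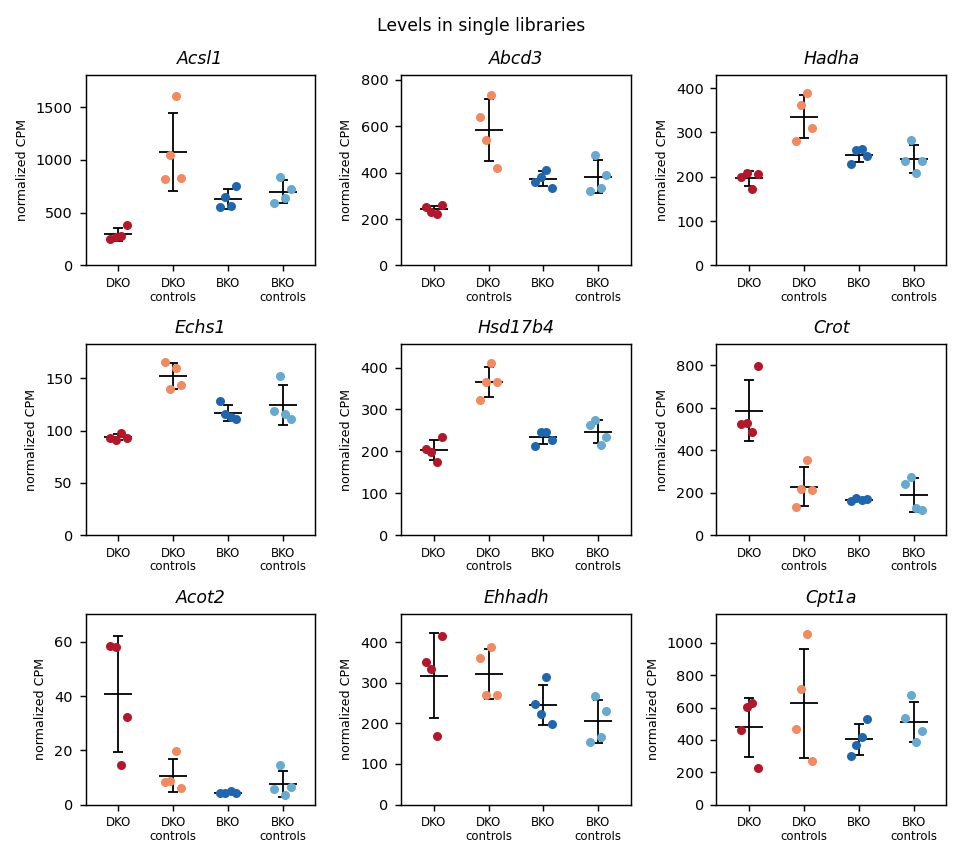
CPM of 9 of the genes in each library (points), with group means (lines) and SD (bars), for DKO, DKO controls, BKO and BKO controls from left to right. Acsl1, Abcd3, Hadha, Echs1 and Hsd17b4 are lower in all 4 DKO livers than in any of their controls, Crot is higher in all 4, and Acot2, Ehhadh and Cpt1a overlap.

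Thioesterases release the fatty acid from coenzyme A, and 3 of the 5 listed fell, 1 rose and 1 was not called. Acot12, the cytosolic acetyl-CoA thioesterase, stood at 68.9, 76.7, 72.4 and 53.7 CPM in DKO livers, against 120.4, 169, 175 and 97.9 CPM in their controls (log2 fold change -1.05 with an SE of 0.19, adjusted p = 0.00208 by edgeR). Acot4, a peroxisomal member, stood at 34.1, 39.6, 19.8 and 36.2 CPM in DKO livers, against 78.3, 109, 133 and 49.0 CPM in their controls (log2 fold change -1.51 with an SE of 0.32, adjusted p = 0.00679 by edgeR). The groups of both were separate, and DKO-7112 had the lowest Acot4 value. Acot1, the cytosolic member, stood at 10.3, 9.18, 1.85 and 11.4 CPM in DKO livers, against 12.99, 35.0, 50.3 and 18.4 CPM in their controls (log2 fold change -1.82 with an SE of 0.58, adjusted p = 0.0405 by edgeR). Acot2, the mitochondrial member, stood at 58.5, 57.9, 14.4 and 32.4 CPM in DKO livers, against 8.17, 8.78, 19.6 and 6.06 CPM in their controls (log2 fold change 1.94 with an SE of 0.52, adjusted p = 0.0213 by edgeR). Acot1 was separate between groups by little, and the DKO-7112 value of Acot2 lay below the WT-7114 control. The Acot1 call ended without WT-7069 or WT-7114, under total counts, without a low-count filter, by voom and with the tag series as a covariate, and that of Acot2 without a low-count filter, without WT-7069 and without WT-7139. Acot3, also peroxisomal, averaged 67.7 ± 35.6 CPM in DKO livers and 112 ± 71.01 CPM in their controls and was not called (log2 fold change -0.72 with an SE of 0.61, adjusted p = 0.397 by edgeR).

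Acot1 and Acot2 lie next to each other on chromosome 12, at 84009490 to 84018371 and 83987861 to 83993873, and their reads are hard to assign. Their coding sequences were identical at 95.6% of 1236 aligned bases in GENCODE M21, with an identical run of 273 bases, and 19.2% and 27.7% of their 50-base stretches also occurred in other genes. The last 90 aligned coding bases are printed with the 8 differing bases in capitals. This stretch is less alike than the coding sequences as a whole.
Acot1: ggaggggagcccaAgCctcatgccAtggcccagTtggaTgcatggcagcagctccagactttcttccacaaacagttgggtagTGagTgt
Acot2: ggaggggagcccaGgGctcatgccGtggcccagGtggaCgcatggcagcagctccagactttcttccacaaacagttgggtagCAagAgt
The sources used here do not say how shared reads were treated, so the fall of Acot1 and the rise of Acot2 are uncertain as values of single genes. Summed over both, the level was 68.8, 67.1, 16.3 and 43.8 CPM in DKO livers, against 21.2, 43.8, 69.9 and 24.5 CPM in their controls. These sums overlapped, at 49.0 ± 24.6 CPM in DKO livers and 39.8 ± 22.4 CPM in controls (SD, n = 4 each). The sum over Acot1 to Acot4 was 149 ± 67.7 CPM in DKO livers and 244 ± 128 CPM in their controls, also with overlap.

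The thiolases Acaa1a and Acaa1b on chromosome 9 were more alike still, identical at 96.5% of 1272 coding bases with a run of 327, and only 2 of the last 90 bases differ, again in capitals.
Acaa1a: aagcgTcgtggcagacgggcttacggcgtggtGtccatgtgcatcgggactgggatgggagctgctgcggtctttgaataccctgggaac
Acaa1b: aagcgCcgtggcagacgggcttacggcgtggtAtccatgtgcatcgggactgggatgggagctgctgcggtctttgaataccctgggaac
Their sum was 407 ± 85.9 CPM in DKO livers and 588 ± 191 CPM in their controls, and the ranges overlapped. Of the 38 genes, 24 overlap another gene of the annotation, 19 one on the opposite strand. Whether the counting used strand is likewise not stated, and some reads of these genes may come from the neighbour. Among those with exonic overlap are Acsl1, Hadha, Echs1, Acadvl, Acot12, Crot and Slc27a2. Etfb shared 44.8% of its 50-base stretches with other genes and Hadhb 19.7%.

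Bdh1, the mitochondrial enzyme that interconverts the ketone bodies, was the only listed gene of ketogenesis proper and averaged 153 ± 52.2 CPM in DKO livers and 203 ± 94.0 CPM in their controls (log2 fold change -0.41 with an SE of 0.37, adjusted p = 0.434 by edgeR), so it was not called. Of 9 other tested ketone body genes, 5 fell and 2 rose (median -0.62). Acat1, which joins acetyl-CoA units, fell (-1.42, adjusted p = 0.000211, edgeR), as did Aacs, which reuses acetoacetate for lipid synthesis (-2.55, adjusted p = 4.62e-05, edgeR). Oxct1, the ketone-using enzyme that hepatocytes normally lack, rose to 10.9 CPM in DKO livers, against 4.53 CPM in their controls (1.27, adjusted p = 0.0015, edgeR).

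Vnn1, a membrane-anchored pantetheinase that frees building blocks of coenzyme A, averaged 18.5 ± 9.49 CPM in DKO livers and 6.85 ± 4.45 CPM in their controls and was not called (log2 fold change 1.42 with an SE of 0.61, adjusted p = 0.109 by edgeR), though it was called higher by DESeq2 and without DKO-7137. Pdk4, the kinase that shuts pyruvate dehydrogenase when fat is burned, averaged 13.3 ± 4.77 CPM in DKO livers and 10.5 ± 5.23 CPM in their controls and was not called (log2 fold change 0.36 with an SE of 0.37, adjusted p = 0.5 by edgeR). Among 26 tested regulators of oxidation, 8 fell and 1 rose (median -0.39). Pdk1, Sirt3, Prkaa2 and Pdk2, for 2 pyruvate dehydrogenase kinases, a mitochondrial deacetylase and a catalytic subunit of AMP-activated kinase, fell (-2.73, adjusted p = 7.83e-05; -0.98, adjusted p = 0.000103; -0.85, adjusted p = 0.000252; -1.11, adjusted p = 0.000297, edgeR). Ppara itself averaged 319 ± 49.6 CPM in DKO livers and 522 ± 229 CPM in their controls and was not called (log2 fold change -0.71 with an SE of 0.28, adjusted p = 0.0758 by edgeR). Of 17 tested PPAR-alpha targets outside oxidation, 5 were lower (29.4%, against 16.6% of all genes) and 3 higher (17.6%, against 19.2% of all genes), with a median of -0.40. Among them Mgll, Aldh3a2 and Cyp4a10 were lower (-1.85, adjusted p = 2.52e-05, -1.70, adjusted p = 0.00321, and -3.70, adjusted p = 0.00998, edgeR) and Tmem98 was higher (1.39, adjusted p = 0.000205, edgeR). Of 7 other tested thioesterases, Acot9 rose and Acot11 fell (1.70, adjusted p = 0.000457, and -2.72, adjusted p = 0.0012, edgeR).

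**Figure D4:**
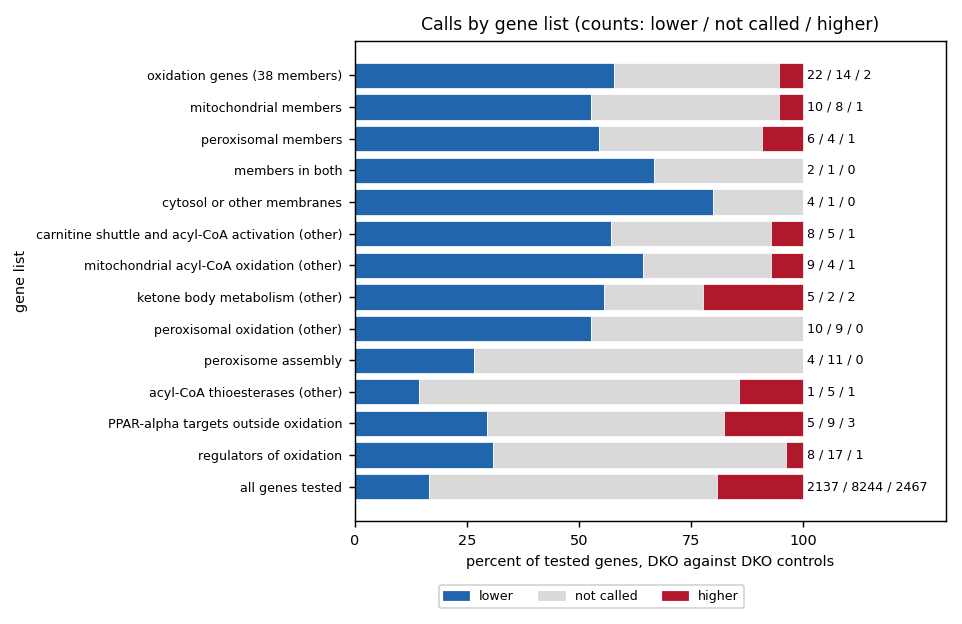
Percent of tested genes called lower (blue), not called (grey) and called higher (red) in DKO over DKO controls, for the 38 genes, their compartments, the other pathway lists and all genes, with the counts at the right. Among the 38 genes 22 were lower and 2 higher, and among all 12848 genes 2137 were lower and 2467 higher.

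Promoters were compared because PPAR-alpha binds a direct repeat, AGGTCA, any 1 base and AGGTCA again, which was searched on both strands. RefSeq windows of GRCm38.p6, from 250 bases before to 50 bases after the start of transcription, existed for 32 of the 38 genes, as 36 windows. No window of the 36 held the exact repeat, against 0.0396% of 32851 windows of all genes. With at most 1 mismatch 1 of 36 (2.78%) held a match, against 0.554%, and with at most 2 mismatches 4 of 36 (11.1%), against 3.86%. With at most 3 the shares were 33.3% of the 36 windows and 24.6% of all, and with at most 4 they were 80.6% and 79.8%. These shares were not tested. The 4 windows with at most 2 mismatches belong to Echs1, Etfa, Acot4 and Acot12 and are printed in the direction of transcription with the match in capitals.
Echs1: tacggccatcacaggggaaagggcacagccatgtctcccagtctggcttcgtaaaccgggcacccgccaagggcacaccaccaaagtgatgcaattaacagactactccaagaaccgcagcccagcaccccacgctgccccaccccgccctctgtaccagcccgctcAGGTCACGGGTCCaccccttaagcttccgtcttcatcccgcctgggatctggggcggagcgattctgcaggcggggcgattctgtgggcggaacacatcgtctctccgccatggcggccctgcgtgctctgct
Etfa: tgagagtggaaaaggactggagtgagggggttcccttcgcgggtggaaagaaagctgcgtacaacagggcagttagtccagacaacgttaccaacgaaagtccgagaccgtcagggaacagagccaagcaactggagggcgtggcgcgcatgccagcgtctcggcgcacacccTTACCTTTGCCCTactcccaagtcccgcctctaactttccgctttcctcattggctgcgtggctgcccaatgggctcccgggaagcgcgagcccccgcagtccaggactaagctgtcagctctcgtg
Acot4: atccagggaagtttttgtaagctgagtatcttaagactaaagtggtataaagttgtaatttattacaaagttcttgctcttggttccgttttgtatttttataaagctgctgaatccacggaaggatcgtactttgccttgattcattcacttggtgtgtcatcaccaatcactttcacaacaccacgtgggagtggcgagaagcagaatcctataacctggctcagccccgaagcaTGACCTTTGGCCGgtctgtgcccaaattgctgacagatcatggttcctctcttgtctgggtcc
Acot12: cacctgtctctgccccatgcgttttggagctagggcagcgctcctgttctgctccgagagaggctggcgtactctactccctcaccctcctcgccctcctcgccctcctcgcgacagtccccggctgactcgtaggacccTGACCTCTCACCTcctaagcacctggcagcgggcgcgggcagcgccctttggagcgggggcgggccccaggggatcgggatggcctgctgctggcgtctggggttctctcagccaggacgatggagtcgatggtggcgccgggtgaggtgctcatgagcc
They lie at chr7:140116372-140116671 on the minus strand, chr9:55512194-55512493 on the minus strand, chr12:84038129-84038428 on the plus strand and chr13:91741271-91741570 on the plus strand. The match was in the direction of transcription in Echs1 and on the other strand in the other windows, with 1 mismatch in Acot12 and 2 in each of the others. A match of letters does not show binding, and no match in these windows says nothing about sites elsewhere.

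Levels were set against each other per kilobase of merged exons, over all GENCODE M21 transcripts of a gene. These lengths were 1516 bases for Acaa2, 8286 for Echs1 and 10483 for Acsl1. A long merged length lowers a gene's rank, and the annotation used for the counts is not stated, so the ranks are approximate. In the DKO controls Acaa2 ranked highest at 320 ± 27.6 CPM per kb, ahead of Slc27a2 at 299.9 ± 75.6 and Acaa1b at 265 ± 92.3, and these first ranks were the same in the BKO controls. The SDs of Acaa2, Slc27a2 and Acaa1b overlapped. Vnn1, Pdk4, Acot2 and Acot1 ranked lowest in the DKO controls, at 2.83 ± 1.84, 2.99 ± 1.49, 4.85 ± 2.77 and 7.44 ± 4.31 CPM per kb. Crot ranked 19 in the DKO controls at 41.9 ± 16.6 CPM per kb, and it stood at 107 ± 26.4 CPM per kb in DKO livers.

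In BKO livers 0 of the 38 genes passed the edgeR test, and 0 did so at an unadjusted p under 0.05, by the DESeq2 Wald test or by limma voom. Over all 14061 genes tested, 0.398% were called lower and 0.185% higher. The median log2 fold change of the 38 genes was -0.05, the SEs ran from 0.09 for Acaa2 to 0.56 for Acot3, and in all 38 genes the groups overlapped, where 3.36% and 3.64% of all genes lay wholly below or above. In the order F1, F3, F4 and F6, then F2, F5-2, F5 and F7, Acsl1 stood at 551, 650.4, 562 and 749 CPM in BKO livers, against 596, 834, 639 and 728 CPM in theirs (log2 fold change -0.15 with an SE of 0.13, adjusted p = 0.721 by edgeR). Abcd3 stood at 362, 383, 412 and 335 CPM in BKO livers, against 323, 479, 334 and 391 CPM in theirs (log2 fold change -0.03 with an SE of 0.13, adjusted p = 0.956 by edgeR). Crot stood at 159.5, 175, 165 and 169 CPM in BKO livers, against 241, 274, 125 and 116 CPM in theirs (log2 fold change -0.18 with an SE of 0.28, adjusted p = 0.868 by edgeR). The BKO values of all 3 lay inside the control range or overlapped it. The smallest p-values belonged to Acot2 (log2 fold change -0.79 with an SE of 0.36, adjusted p = 0.439 by edgeR), Pdk4 (log2 fold change 0.58 with an SE of 0.28, adjusted p = 0.471 by edgeR) and Acot3 (log2 fold change -1.17 with an SE of 0.56, adjusted p = 0.501 by edgeR). The Acot3 difference rested on F5-2, at 307 CPM in that control against 55.6 to 90.1 CPM in the others, and without F5-2 the median of the 38 genes was 0.10. With F5 and F5-2 summed into 1 library, 0 of the 38 genes were called and their median was -0.02. Of 124 other tested pathway genes 0 were called by edgeR, with 11 at an unadjusted p under 0.05, 4 by DESeq2 and 0 by voom. Of all 14061 genes DESeq2 called 152 higher and 203 lower, and the share at that unadjusted p was not counted.

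The DKO effect was set against the BKO effect in 1 fit over all 16 libraries, each knockout relative to its own controls. It was lower in DKO for 12 of the 38 genes and higher for 2, where 11.5% and 11.0% of 14050 genes were. The experiments differ in depth and in their tables, so a difference of genotype and one of experiment cannot be told apart. Among those called lower, the largest differences were Acsl1 (log2 fold change -1.73 with an SE of 0.29, adjusted p = 0.000429 by edgeR) and Abcd3 (log2 fold change -1.27 with an SE of 0.22, adjusted p = 0.000587 by edgeR), followed by Acot12 (log2 fold change -0.92 with an SE of 0.25, adjusted p = 0.0142 by edgeR) and Hadha (log2 fold change -0.85 with an SE of 0.17, adjusted p = 0.0018 by edgeR). Crot (log2 fold change 1.5 with an SE of 0.42, adjusted p = 0.0176 by edgeR) and Acot2 (log2 fold change 2.70 with an SE of 0.69, adjusted p = 0.0121 by edgeR) were higher. Eci1, Hsd17b4, Etfb, Hadhb, Acad11, Acadvl, Echs1 and Etfa made up the rest, with differences of -0.51 to -0.84. By compartment 7 mitochondrial, 2 peroxisomal, 1 shared and 2 other genes were lower. For 10 genes that fell in DKO livers the difference itself was not called, among them Pex11a (log2 fold change -1.01 with an SE of 0.41, adjusted p = 0.0892 by edgeR) and Acot4 (log2 fold change -1.05 with an SE of 0.47, adjusted p = 0.125 by edgeR). Without F5, 10 were lower and 2 higher. Without F5-2, 18 were lower, without F5-2 and WT-7114 together 17, and under total counts alone 4 were lower and 2 higher. The calls of Acsl1, Abcd3, Hadha, Hsd17b4, Crot and Acot2 held in all 24 alternatives, while that of Hadhb ended in 11, among them those without any 1 of DKO-7068, DKO-7070, DKO-7112, WT-7069, WT-7114, F2, F3, F5, F6 or F7. That of Acad11 ended in 9, among them those without DKO-7068, DKO-7112, WT-7114, F2, F4, F5, F6 or F7. Acadvl, Acot12, Echs1, Eci1, Etfa and Etfb lost theirs under total counts.

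Markers of hepatocytes and of other cell types also changed in DKO livers. In bulk liver, fewer hepatocytes and less RNA per hepatocyte cannot be told apart. Of 10 hepatocyte markers 4 fell in DKO livers, 2 rose and 4 were not called, with a median log2 fold change of -0.24. Ttr and Alb, both lower, came first by p (-0.76, adjusted p = 0.00291, and -0.91, adjusted p = 0.00738, edgeR). The 2 that rose were Hp and Fgb, named after their values were seen (1.51, adjusted p = 0.0117, and 1.04, adjusted p = 0.0234, edgeR). The summed level of the 10 was 95108 to 122860 CPM in DKO livers, against 135911 to 165700 CPM in their controls, without overlap.

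Recruited macrophage markers rose in 9 of 10 cases, with Mmp12 and Cx3cr1 first, and summed to 164 to 979 CPM in DKO livers, against 40.9 to 47.8 CPM in their controls. Stellate cell and myofibroblast markers rose in 7 of 10 cases and fell in 2, with Pdgfrb and Lum first. Their log2 fold changes ran from -1.77 to 4.31, so their sum does not stand for every marker of the list. They summed to 1797 to 2638 CPM in DKO livers, against 308 to 471 CPM in their controls. All 8 proliferation genes rose, with Top2a and Plk1 first, and summed to 93.3 to 162 CPM in DKO livers, against 19.7 to 25.2 CPM in their controls. These sums did not overlap between groups. Kupffer cell markers rose in 5 of 10 cases, with C1qc and C1qb first, and summed to 521 to 599.7 CPM in DKO livers, against 333 to 562 CPM in their controls. Of the bile duct markers 5 of 10 passed the low-count filter and 3 rose, with Prom1 and Tspan8 first, and the sum of all was 100.4 to 897 CPM in DKO livers, against 29.6 to 43.8 CPM in their controls. Spp1 is in both the bile duct and the recruited macrophage list, so the sums of these lists are not independent. Sinusoidal endothelial markers fell in 4 of 10 cases and rose in 1, with Ehd3 and Ptprb first, and summed to 616 to 681 CPM in DKO livers, against 721 to 886 CPM in their controls. Neutrophil markers rose in all 3 tested, with S100a9 and S100a8 first, and summed to 11.7 to 57.1 CPM in DKO livers, against 3.15 to 6.30 CPM in their controls. Cd4 was the 1 lymphocyte marker tested and rose, and that list summed to 6.74 to 12.95 CPM in DKO livers, against 3.91 to 6.59 CPM in their controls. In BKO livers 0 of 72 tested markers were called by edgeR, with 10 at an unadjusted p under 0.05, 2 by DESeq2 and 0 by voom. The share of all genes at that unadjusted p was not counted, so the 10 cannot be set against it. The part of these cells in the fall of the oxidation genes was not tested.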

How the data were processed

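Per the labels' protocols, TRIzol was used to extract liver RNA and a NuGEN Ovation kit to build libraries. The deposited values are raw counts per gene, whole numbers that were not normalized, in 1 table per experiment with 24421 rows each. The submitters' processing notes name HISAT2 2.1.0, featureCounts 1.6.2 and Trim Galore 0.4.1, and GRCm38, mm10 and GRCh38 without a role. Strand setting, annotation and handling of reads common to several genes are not stated. Groups follow the labelled genotype, and 0 columns were left without a sample.

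The 38 genes and the other gene lists were chosen with earlier results of these data known. The main test was edgeR 4.0.16 (R 4.3.3), with filterByExpr, TMM factors and its robust quasi-likelihood test. Each experiment had its own fit, and the knockout effects were set against each other in a joint table of 24394 genes and 16 libraries, from which 27 date-like names of the BKO table were left out. A call is a Benjamini-Hochberg adjusted p under 0.05, over all genes tested. SEs were taken as log2 fold change over the root of F, and SDs are over n = 4 libraries per group. DESeq2 1.42.0, limma 3.58.1 with voom, other scalings and filters, and fits without single libraries were alternatives, and leaving out WT-7114 and F5-2 together was added after seeing the data. Values per library are given for called genes, and up to 4 genes per pathway list and 2 per marker list by p are named. Some genes that this rule covers are not reported here. The fits were tested on simulated counts. Coordinates, exon lengths and coding sequences are from GENCODE M21 on GRCm38, and promoters from RefSeq on GRCm38.p6. Repeated 50-base stretches were counted over GENCODE transcripts.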

Additional observations from a re-analysis of the deposited data

Results flagged for a closer look

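In 152 gene and group combinations of 4 libraries, 7 had 1 library far from the other 3 by Dixon's test, and chance gives about 5% of them. In DKO livers, Acadm was low in DKO-7112, at 140.6 CPM against 177 to 183 CPM in the others, and Crot was high in DKO-7137, at 799.7 CPM against 487 to 530.4 CPM. In BKO livers, Etfb was low in F6, at 94.6 CPM against 116 to 117 CPM, and Pex11a was high in F4, at 20.9 CPM against 11.9 to 12.8 CPM. In the BKO controls, F5-2 was high in Acaa1b at 655 CPM against 301 to 343 CPM, in Acot3 at 307 CPM against 55.6 to 90.1 CPM, and in Bdh1 at 285 CPM against 139 to 157 CPM.

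The DKO effect and the BKO effect differed by edgeR's test of the difference itself for 14 of the 38 genes, on the log2 scale. The DKO effect was lower for Acsl1 (-1.73), Abcd3 (-1.27), Acot12 (-0.92), Hadha (-0.85), Eci1 (-0.84), Hsd17b4 (-0.80), Etfb (-0.77), Hadhb (-0.75), Acad11 (-0.67), Acadvl (-0.66), Echs1 (-0.64) and Etfa (-0.51). It was higher for Acot2 (2.70) and Crot (1.5).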

How the results depend on the processing

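In no alternative did a called gene among the 38 change sign. Scaling by total counts alone called 12 of the 38 lower in DKO livers in place of 22, and 4 in place of 12 for the difference between the knockout effects. Over all genes it called 1269 lower in DKO livers, 86 lower in BKO livers, and 2627 higher and 744 lower for the difference, where 77.9% of the calls were higher, against 49.1% with TMM. In BKO livers 20.4% of its calls were higher, against 31.7%. It kept 14 of the 24 calls in DKO livers and ended those of Acaa1a, Acad11, Acadl, Acads, Acadvl, Acot1, Decr2, Etfa, Hadhb and Slc27a2. With no filter on low counts 1 gene was higher in DKO livers in place of 2. Among BKO libraries the DESeq2 Wald test called 152 genes higher and 203 lower of all genes, and the fit of all 16 libraries 13 and 37, in place of 26 and 56, while 0 of the 38 were called in any alternative. With 1 library left out in turn, 1 to 3 of the 38 were higher and 16 to 22 lower in DKO livers, and over all genes 4 to 33 were higher and 13 to 73 lower in BKO livers. The fewest lower genes in DKO livers came without WT-7114, and the fewest BKO calls without F1 (4 and 13); F2, F3, F6, F7 and F5 left out gave 6 and 25, 10 and 30, 9 and 20, 17 and 34, and 20 and 37. For the difference, 10 to 18 of the 38 were lower, most without F5-2. The cause was not tested for any of these changes. Depth was lower in the DKO experiment. The widest log2 SEs among the 38 genes in that experiment were those of Vnn1, Acot3, Acot1, Acot2 and Cpt1a, at 0.44 to 0.61. In the deeper BKO experiment the widest was that of Acot3, at 0.56. The part of depth in these SEs was not tested. No paired analysis was run, because the labels do not state which knockout and control belong together. In the DKO experiment, knockout and control tags lie close in number, such as DKO-7068 and WT-7067. Blocking by neighbouring tags was not tried, so any spread that neighbours share stayed in the error. A fit with the tag series as a covariate, which pairs no libraries, called 2 of the 38 higher and 21 lower in DKO livers.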
